A study of Danio rerio with 10 samples.

Results

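The long arm of zebrafish chromosome 4 was taken as every annotated feature of that chromosome whose first exon block starts above position 28000000 of the genome build GRCz10. This gave 2398 of the 3103 features of chromosome 4 and of the 31388 features counted in all, with the first starting at 28072421 and the last ending at 76624966. The remaining 705 features of chromosome 4 were the comparison. The rule for members uses position alone and no measured value. Only 819 of the 2398 matched a gene symbol, which is given as the gene table spells it, and the other 1579 go by Ensembl identifier alone.

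The long arm of chromosome 4 is known in zebrafish as a late-replicating, heterochromatic stretch with few single-copy genes. It carries large arrays of tandemly duplicated genes, among them zinc finger genes, which encode DNA-binding proteins, and NLR genes, which encode NACHT-domain receptors of innate immunity. Copies of genes for the 5S ribosomal RNA and for small nuclear RNAs of the spliceosome, such as U1 and U6, are also concentrated there. Sequence copies of this kind make short reads hard to place, and how reads that fit several genes were counted is not given in the sources used here. Values of near-identical copies are therefore uncertain, and so are those of the 268 long-arm features that overlap another feature of the table, since the use of strand in counting is likewise not given.

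RNA came from FACsorted cells of the adult spinal cord, with 5 biological replicates of each population, to compare the transcriptomes of oligodendrocyte progenitor cells (OPCs) and mature oligodendrocytes (OLs). OPCs were GFP-positive cells of the line Tg(olig2:eGFP), in which the olig2 promoter drives GFP, and OLs were GFP-positive cells of Tg(mbp:eGFP), in which the mbp promoter does. All fish were adult, tissue from up to 5 spinal cords was pooled at dissection, and no injury or drug was part of the labels. Because olig2-driven GFP is not limited to OPCs, this sort can also collect radial glia of the ventral cord. Each population had its own fish line and its own cell strainer, so line, strainer and population cannot be told apart.

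Total counts per library ranged from 11072526 to 11960408 in OPCs and from 13937725 to 20225093 in OLs, so every OL library was deeper. The lineage transcription factor olig1 stood at 56.7 to 128 CPM (counts scaled to the library total) in OPC libraries and at 0.574 to 4.22 CPM in OL libraries, and olig2 at 1113 to 2187 against 157 to 395 CPM. Of the 4 lineage markers 3 were matched, including sox10, which overlapped at 197 to 415 CPM in OPCs and 155 to 309 CPM in OLs. The myelin gene mbpa was abundant in both, at 39478 to 49978 CPM in OPCs and 59588 to 67503 CPM in OLs. Mature myelin transcripts were thus not absent from the OPC libraries. All 4 myelin markers were matched. The genes mpz and plp1b were higher in every OL library than in any OPC library. The levels of cldnk overlapped, at 4489 to 5871 CPM in OPCs and 5628 to 8119 CPM in OLs. Of the 1 of 4 radial glia markers that could be matched, gfap, the level was 1.99 to 17.4 CPM in OPCs and 0.982 to 3.40 CPM in OLs. Of the 4 microglia and leukocyte markers 3 were matched, with ptprc at 0.346 to 4.03 CPM in OPCs and 0.511 to 1.22 CPM in OLs, coro1a without a count in any OPC library and csf1ra at no more than 0.181 CPM. The only neuron marker matched of 4, elavl3, stood at 310 to 584 CPM in OPCs and 298 to 455 CPM in OLs. Whether cells of other types had a part in the long-arm values was not tested.

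Most of the long arm gave no or few reads. Of its 2398 features, 1166 (48.6%) had no count in any of the 10 libraries, 873 (36.4%) had a count in some libraries and 359 (15.0%) had one in every library. On the rest of chromosome 4 the corresponding numbers of 705 were 80 (11.3%), 303 (43.0%) and 322 (45.7%). On the other nuclear chromosomes 4829 of 28248 features (17.1%) had no count. The long arm thus had a larger share of silent or unseen features than either. A count of 0 in a library allows up to 3 counts, and this limit covers counting error only, because the reads carried no stated molecular identifiers.

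Among the 1232 long-arm features with a count, few were abundant. Over all libraries together, 371 had 1 to 10 counts, 556 had 11 to 100, and 305 had more than 100, of which 22 had more than 1000. The single most abundant feature held 5.12% of all long-arm counts, the top 10 held 19.7% and the top 100 held 58.6%. Counts in OPC libraries only were seen for 94 features and in OL libraries only for 101, with a median summed count of 1 and a highest of 20 in both sets, which is too low to place a feature in 1 population. The other 1037 were counted in both.

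Detection was compared after every library was brought to the smallest total, 11072526 counts, by the expected number of features that would keep at least 1 count. At that depth 32.5%, 33.1%, 35.5%, 33.5% and 31.8% of long-arm features were detected in OPC1 to OPC5. In OL1 to OL5 the shares were 31.9%, 35.8%, 33.6%, 33.0% and 33.8%. The populations overlapped throughout, with 33.3% ± 1.38 in OPCs and 33.6% ± 1.41 in OLs (SD over 5 libraries), and the difference of -0.32 percentage points had p = 0.69 in an exact permutation test (two-sided; adjusted p = 0.69 over 8 measures of the libraries). Without the depth correction the shares were 33.6% ± 1.21 for OPCs and 36.6% ± 1.70 for OLs (exact permutation test, adjusted p = 0.0272), and with at least 10 counts required the difference was 1.31 percentage points the other way (adjusted p = 0.0317).

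The rest of chromosome 4 was detected far more often, at 62.7% to 69.6% in OPC libraries and 57.3% to 62.3% in OL libraries. Detection on the long arm was lower than on the rest in 10 of 10 libraries, by 29.4 percentage points on average (exact sign-flip permutation test over the 10 libraries, two-sided, p = 0.00195, the smallest this design allows; adjusted p = 0.00781). Every library was scored on the same features of each part. Sign-flip tests, here and below, thus measure agreement between libraries and not variation among features. In relative terms a long-arm feature was detected 0.501 ± 0.0141 times as often as a feature of the rest in OPCs and 0.567 ± 0.0084 times in OLs (SD over 5 libraries). Those ratios did not overlap between the populations and differed by -0.067 (two-sided p = 0.00794 by exact permutation, which is as small as 5 libraries against 5 allow; adjusted p = 0.0106). The 2 terms of the ratio behaved differently, since the long-arm shares overlapped whereas every OPC library was above every OL library for the rest of the chromosome. With at least 10 counts required the ratios differed by -0.0059 only (adjusted p = 0.563, same exact test).

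**Figure D1:**
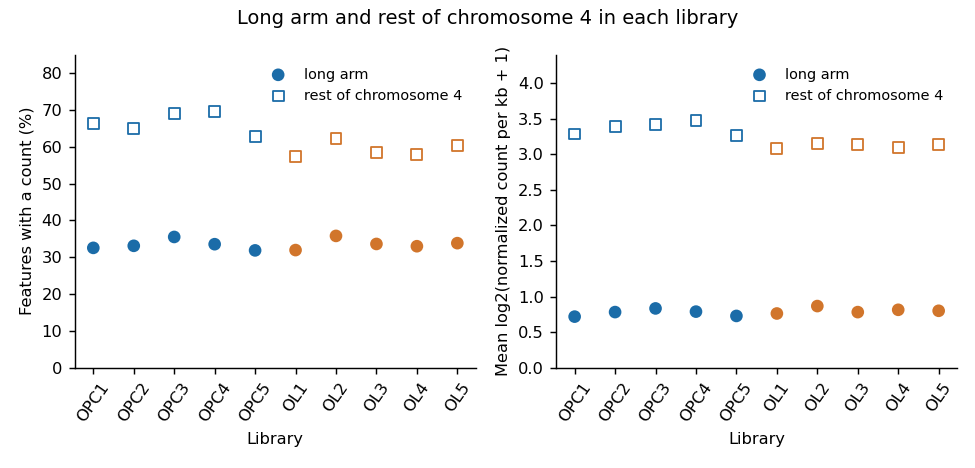
The left plot gives the percentage of features with a count at the common depth and the right plot the mean log2(normalized count per kb + 1), for the long arm (filled circles) and the rest of chromosome 4 (open squares) in each of the 5 OPC (blue) and 5 OL (orange) libraries. Long-arm detection stayed between 31.8% and 35.8%, below the rest in every library, and the long-arm level stayed below 0.87.

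Feature length separated the arms strongly. The median length was 435.5 bp on the long arm and 1971 bp on the rest of chromosome 4, and 1145 long-arm features (47.7%) were shorter than 200 bp against 38 (5.39%) on the rest. Much of this came from a few recurring lengths. Exactly 107 bp long were 605 long-arm features, but 1 feature of the rest and 23 of all other chromosomes, and 3 of the 605 carried the symbol of the small nuclear RNA U6. Exactly 164 bp long were 246 long-arm features, against 0 on the rest and 3 on other chromosomes, and 2 of them carried the symbol U1. These short copies were nearly unseen, with 30 counts over all libraries for the 107 bp features, spread over 26 of them, and 14 counts over 12 of the 164 bp features. The labels give polyA RNA as the molecule sequenced, and its part in these low counts was not tested.

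Among features under 200 bp, 1.84% of the long arm and 11.9% of the rest were detected in OPCs, and 1.30% and 10.4% in OLs. From 200 to under 500 bp the shares were 23.1% on the long arm and 43.6% on the rest in OPCs, and 24.5% and 38.7% in OLs. The gap narrowed among longer features. From 500 to under 2000 bp, 54.6% ± 5.00 of 641 long-arm features were detected in OPCs against 61.6% ± 3.04 of 278 on the rest, and 54.6% ± 2.27 against 56.4% ± 2.74 in OLs (SD, n = 5 each). At 2000 bp or more, the 535 long-arm features were detected in 74.3% to 78.3% of cases in OPC libraries and the 344 features of the rest in 76.6% to 82.4%. In OL libraries the order was turned round, with 74.96% to 82.47% on the long arm and 66.74% to 72.27% on the rest and no overlap, a difference that was seen after the values were known and was not tested. Restricted to features of at least 500 bp, the difference in detection between the arms was -2.46 percentage points in place of -29.4 (exact sign-flip permutation test, adjusted p = 0.198). That value averages OPC and OL libraries, whose mean shares at 2000 bp or more differed between the arms in opposite directions. It therefore does not show how the arms compared within either population.

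**Figure D2:**
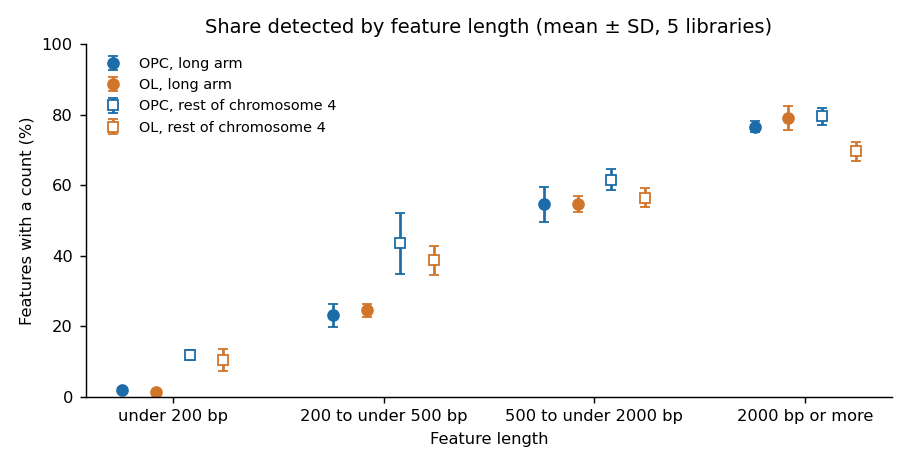
The share of features with a count at the common depth (%, mean ± SD of 5 libraries) is plotted against feature length in 4 classes for the long arm (filled circles) and the rest of chromosome 4 (open squares), with OPCs in blue and OLs in orange. Long-arm features under 200 bp were almost never detected, at 1.84% and 1.30%, whereas those of 2000 bp or more reached 76.6% and 79.0%.

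Levels stayed low on the long arm also where detection did not. The mean over features of log2(normalized count per kb + 1) was 0.717, 0.781, 0.833, 0.788 and 0.727 in OPC1 to OPC5 and 0.761, 0.866, 0.781, 0.813 and 0.799 in OL1 to OL5, so the populations overlapped (difference -0.03 on this log2 scale, exact permutation test, adjusted p = 0.272). With CPM in place of size factors the direction of this difference reversed, and it passed the same test. With size factors the rest of chromosome 4 stood at 3.36 ± 0.09 in OPCs and 3.12 ± 0.03 in OLs on the same log2 scale (SD over 5 libraries). The long arm was lower in 10 of 10 libraries, by 2.45 on average (exact sign-flip permutation test, two-sided, p = 0.00195, adjusted p = 0.00781). For features of at least 500 bp alone the mean difference between the arms was -2.02 (adjusted p = 0.0127). The gap between the arms was wider in OPCs, at -2.60 ± 0.06 against -2.31 ± 0.04 in OLs, without overlap (exact permutation test, adjusted p = 0.0106), but turned round to a difference of 0.20 as medians over detected features (adjusted p = 0.339).

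Together all long-arm features made up 1102, 1231, 1163, 1102 and 1209 CPM in OPC1 to OPC5 and 938, 1016, 899, 947 and 1018 CPM in OL1 to OL5. Every OPC library was above every OL library on this scale, by 198 CPM on average (two-sided p = 0.00794 by exact permutation; adjusted p = 0.0106), but the direction reversed when the counts were divided by size factors instead, to -390 normalized counts (adjusted p = 0.354). In such bulk libraries fewer cells of a type and less RNA per cell cannot be told apart. The ratio within a library does not depend on the scaling. Relative to the rest of chromosome 4 the summed level was -4.27 ± 0.11 on the log2 scale in OPCs and -4.57 ± 0.07 in OLs, a difference of 0.30 without overlap (adjusted p = 0.0106, same exact test). The most abundant feature of the rest of the chromosome was cd9b, which encodes a tetraspanin membrane protein and had a mean of 44900 normalized counts in OPCs and 96100 in OLs. Without it and the most abundant long-arm feature, NUP50, the difference was 0.11 and did not pass (exact permutation test, adjusted p = 0.106).

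The long arm was not uniform along its length. The first 7 Mb, from position 28 to 35 Mb, held 506 features, the most of any stretch, of which 69.8% were under 200 bp and 25.9% ± 1.13 were detected in OPCs (SD, n = 5). From 35 to 42 Mb 276 features were detected at 48.0% ± 2.74 in OPCs and 47.6% ± 2.93 in OLs. Between 42 and 70 Mb the mean share detected was 24.9% to 34.4% in OPCs and 25.8% to 33.1% in OLs. The last stretch, from 70 Mb to the end, came nearer to the rest of the chromosome than the other long-arm stretches did. In most measures it still lay outside the range of the rest. Its mean of 488 CPM in OPCs and 426 CPM in OLs was below every 7 Mb stretch of the rest (2530 to 10700 and 2000 to 12700 CPM). The share of features abundant enough to be tested between the populations was also lower, at 34.8% against 40.8% to 60.9%. Of the 233 features of the last stretch 12.9% were under 200 bp, against 3.43% to 9.2% in the stretches of the rest. A count in at least 1 library was seen for 191 (82.0%), against 86.2% to 92.0%. At the common depth 60.0% ± 1.75 were detected in OPCs (62.8% to 73.1% on the rest) and 60.0% ± 1.97 in OLs (53.7% to 68.7%). The last stretch held 43.2% of all long-arm counts and 45 of the 54 long-arm genes with a name that is neither a zinc finger, NLR or small RNA symbol nor derived from a clone. By these measures the distal end differed from the feature-rich, read-poor remainder, and its 191 counted features weigh on every summed level of the arm.

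**Figure D3:**
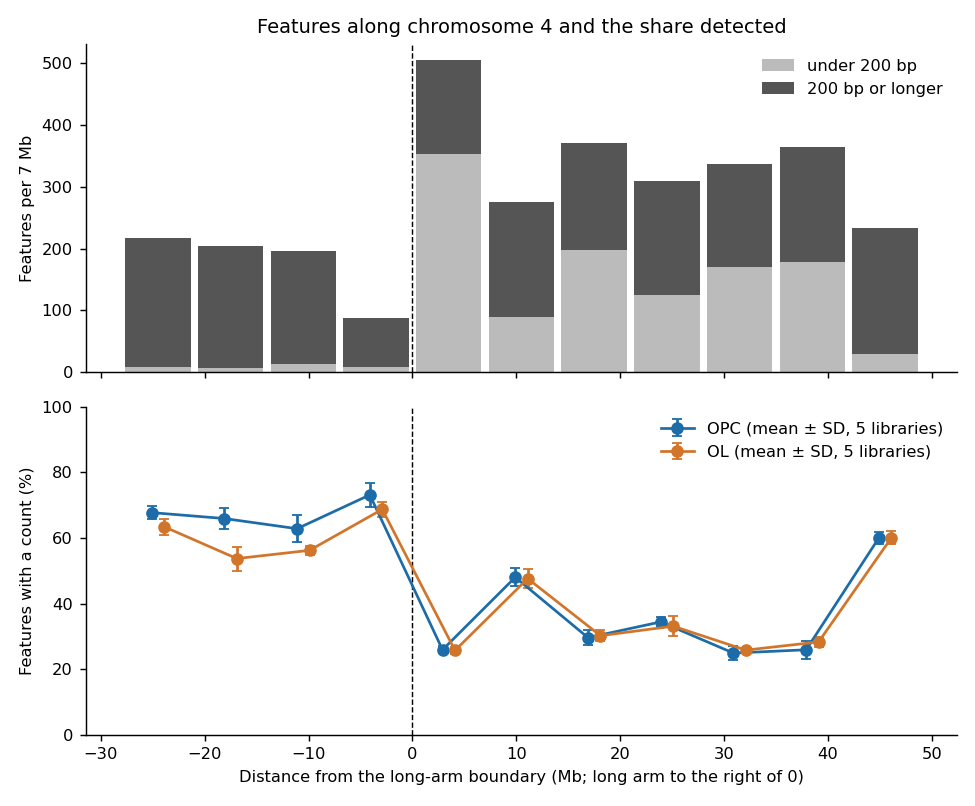
The upper plot gives the number of features per 7 Mb, split at 200 bp, and the lower plot the share with a count at the common depth (%, mean ± SD of 5 libraries, OPC blue and OL orange), against the distance from the long-arm boundary in Mb, with the long arm to the right of 0. Detection dropped across the boundary to 25.9% in OPCs and rose to 60.0% in the last stretch.

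The features on either side of the boundary were both protein-coding genes. GRAMD4 (28072421 to 28169047, minus strand), just inside, had 86.2, 13.3, 22.4, 18.6 and 0.931 normalized counts in OPC1 to OPC5 and 1.44, 5.13, 7.82, 9.90 and 0 in OL1 to OL5. Its OPC values spread widely, overlapped those of OLs and were too low for the test. CERK (27909378 to 27964688, plus strand), the ceramide kinase gene just outside, had 3.08 to 47.5 normalized counts in OPCs and 12.2 to 40.6 in OLs.

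Zinc finger genes, recognised by a symbol starting with znf, were the largest named family, with 102 features on the long arm and 1 on the rest of chromosome 4. Zinc finger genes without such a symbol are not counted here. All 102 had a count in at least 1 library and 45 had one in every library. At the common depth 79.0% ± 8.72 of them were detected in OPCs and 80.4% ± 3.19 in OLs (SD, n = 5). The arm as a whole, with its many short features, stood at 33.3% and 33.6%. The median length of the zinc finger genes was 1753 bp. Long-arm features of 500 to under 2000 bp were detected at 54.6% in both populations, and those of 2000 bp or more at 76.6% in OPCs and 79.0% in OLs. The summed level of the zinc finger genes was 104 to 126 CPM in OPC libraries and 64.2 to 87.4 CPM in OL libraries, 8.83% of the long-arm counts. On this scale the summed level of the whole arm was also higher in OPCs, a direction that reversed with size factors. Individually the zinc finger genes were scarce. The 31 that passed the filter on low counts had mean normalized counts of 11.2 to 107, with a median of 23.2, close to the 26.2 of all tested long-arm features and far from the 188 of the tested features on the rest of the chromosome.

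The other arrayed families were scarcer still. The 2 NLR genes recognised by symbol, nlrc3l2 and nlrp12l2, had 33 counts over all libraries together and no more than 6 in any, and NLR copies without such a symbol are not counted here. Of 40 small RNA genes with a symbol, 35 had no count. All 13 U6 and all 3 5S_rRNA features had 0 counts, and the 23 U1 features had 6 counts in all. Among protein-coding arrays of the distal end, the 12 ms4a17a genes, members of the family of 4-span membrane proteins that includes CD20 in mammals, had 143 counts in all, and the 5 slco1 genes, of the organic anion transporter family, had 40. None of these features was abundant enough to be tested between the populations.

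Clone-based names, given to genes that were annotated from a sequenced clone, belonged to 621 features, of which 549 were counted and 109 tested. They held 36.4% of the long-arm counts. The 1579 features without a symbol had a median length of 147 bp, and 525 of them were counted and 110 tested. They held 32.5% of the long-arm counts. The 54 other named genes held 22.3%.

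Among features of at least 200 bp, the 6 with the highest levels per length were cct2, annotated here with only 307 bp, for a subunit of the cytosolic chaperonin (399 normalized counts per kb, mean of 10 libraries), PSMB10 (247), NUP50, for a nuclear pore protein (232), TPRKB, for a component of a complex that modifies tRNA (202), si:cabz01066312.1 (189) and RAB3IP, for an activator of Rab GTPases in vesicle transport (184). NUP50 had 903, 550, 648, 757 and 290 normalized counts in OPC1 to OPC5 and 698, 730, 928, 1030 and 822 in OL1 to OL5. Its groups overlapped, OPC5 was the lowest library, and the log2 difference of -0.42 (SE 0.26) did not pass (edgeR, adjusted p = 0.369). TPRKB stood at 175 to 352 normalized counts in OPCs and 123 to 257 in OLs, and RAB3IP at 205 to 484 and 269 to 476, overlapping in each case. Of the 6, only PSMB10 passed the test between the populations.

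Differences between OPCs and OLs were tested for the 269 long-arm features that passed edgeR's filter on low counts, which is 11.2% of the arm against 331 features (47.0%) of the rest. The filter kept 18.4% of long-arm features of 500 to under 2000 bp and 27.5% of those of 2000 bp or more, and none under 200 bp. At an adjusted p under 0.05 over all tested features of the genome, 16 of the 269 differed (5.95%), against 1468 of all 12292 tested features (11.9%). Of the 16, 6 were higher in OPCs (background 8.97% of tested features) and 10 were higher in OLs (background 2.97%). On the rest of chromosome 4, 37 of 331 differed (11.2%), 24 of them with more RNA in OPCs and 13 in OLs. The long arm's share was below the background. As a share of the 269, its calls higher in OPCs were below their background, and those higher in OLs were near theirs. Tested long-arm features were also lower in level, with a median of mean normalized counts of 26.2 against 188 on the rest of the chromosome. The part of level in these shares was not tested. The order of the 6 and the 10 reversed with counts scaled by library size alone, to 10 higher in OPCs and 6 higher in OLs. That scaling moved the median of log2 fold changes over the tested genome from 0.05 to 0.36, and under it 14.7% of tested features were called higher in OPCs and 0.96% were higher in OLs. The number of calls fell to 10 without OL2, 10 without OL4 and 9 without OL5, and the number higher in OPCs to 3 without any 1 of OPC1, OPC3, OPC4, OL2 or OL4 and to 2 without OL5. A difference in shares between the arms was not tested.

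OPC and OL libraries were fully separated in 21 long-arm features (7.81%), with OPCs on top in 8 and OLs in 13, where 12.6% of all tested features were separated. The median log2 fold change of the 269 features was -0.01, with the middle part of them between -0.49 and 0.38, and that of all tested features was 0.05. Spread between replicates was not larger in itself on the long arm at low levels, with a median dispersion of 0.467 below a mean log2 CPM of 1 against 0.529 on the rest of chromosome 4. It was 0.323 against 0.273 at a log2 CPM from 1 to under 3, and 0.109 against 0.0851 from 3 upwards, where only 19 of the 269 long-arm features lie against 208 of 331 on the rest.

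Among the named protein-coding genes that were higher in OPCs, PSMB10 (75630955 to 75639856, minus strand) encodes in mammals a catalytic subunit of the immunoproteasome. It had 459, 411, 359, 265 and 286 normalized counts in OPC1 to OPC5 and 174, 88.1, 151, 121 and 140 in OL1 to OL5. The lowest OPC library stood well above the highest OL library, and the log2 fold change was 1.40 (SE 0.24, edgeR, adjusted p = 0.00134). CPNE8 (73733122 to 73840034, plus strand), of the copine family of calcium-dependent membrane-binding proteins, had 35.1, 22.6, 33.6, 72.2 and 70.8 normalized counts in OPC1 to OPC5 and 0, 9.41, 15.6, 2.97 and 9.39 in OL1 to OL5. Its groups were separate, but all levels were low and the log2 fold change of 2.65 (SE 0.80) was near the threshold (edgeR, adjusted p = 0.0486). The call was lost with a replicate block and without any 1 of the OPC libraries or of OL2, OL4 and OL5. The adjusted p ran from 0.00413 to 0.105 under the alternatives.

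Of the zinc finger genes, 1 of 31 differed, beside 11.9% of all tested features, with 8.97% of all tested features higher in OPCs. The zinc finger gene that differed was znf1009 (75470342 to 75603963, plus strand), with 140, 96.4, 135, 93.0 and 154 normalized counts in OPC1 to OPC5 and 70.3, 57.3, 26.8, 77.2 and 43.2 in OL1 to OL5. All OPC libraries lay above all OL libraries, with a log2 fold change of 1.16 (SE 0.34, edgeR, adjusted p = 0.0405), and it overlaps 1 other feature. The call was lost without any 1 of OPC1, OPC3, OPC5, OL2, OL3 or OL5. It was also lost with no filter on low counts, with at least 10 counts required in every library and with a replicate block. The adjusted p ran from 0.00657 to 0.0833 over the alternatives. The second most abundant member, znf1059 (28860207 to 29154519, plus strand), had 105 to 193 normalized counts in OPCs and 61.0 to 104 in OLs, with a log2 fold change of 0.73 (SE 0.29) that did not pass (edgeR, adjusted p = 0.137). Of the 31, 23 had a log2 fold change above 0 and 8 below 0, with a median of 0.27 against 0.05 over all tested features. The range was -1.82 to 1.34, and the others did not pass. With library size alone 28 of the 31 were above 0, and the medians were 0.57 and 0.36. The 31 genes were counted in the same libraries and are not replicates, and the balance of signs was not tested.

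The remaining features higher in OPCs had clone-based names. For si:dkey-23a23.2 (29079208 to 29095592, minus strand) the raw counts were 12, 16, 29, 21 and 40 in OPC1 to OPC5 and 1, 1, 0, 0 and 7 in OL1 to OL5. It was low everywhere and nearly absent in 4 OL libraries (log2 fold change 3.80, SE 0.90, edgeR, adjusted p = 0.0131). Without OL5, the OL library with 7 reads, the log2 fold change was 5.46 (adjusted p = 0.00156, within 0.000795 to 0.0411 over the alternatives). For si:dkey-61p9.9 (76245352 to 76361603, plus strand), which overlaps 2 other features, the normalized counts were 180, 119, 253, 116 and 249 in OPCs and 105, 6.84, 5.59, 5.94 and 6.57 in OLs. OL1 stood just below the lowest OPC library, and the log2 fold change of 2.78 (SE 0.82, edgeR, adjusted p = 0.0435) became 4.84 without OL1 (adjusted p = 3.53e-05). Without any other 1 of the libraries the call was lost, with adjusted p up to 0.0836. For si:dkey-51d8.9 (44381204 to 44388931, plus strand) OPC libraries had 47.1 to 167 normalized counts and OL libraries 5.59 to 45.3 (log2 fold change 1.98, SE 0.54, edgeR, adjusted p = 0.0315), a call that was lost without any 1 of OPC1, OPC4, OL1, OL4 or OL5 (0.00271 to 0.0803 over the alternatives).

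Among features higher in OLs, the sharpest contrast was that of si:dkey-193i10.3 (69128203 to 69129595, plus strand, 971 bp). It had raw counts of 0, 0, 0, 1 and 0 in OPC1 to OPC5 and of 33, 56, 39, 47 and 54 in OL1 to OL5. A single read was thus seen in all OPC libraries together, and the scaled ratio of OL to OPC counts was 198, with a 95% interval of 35.3 to 7870 that covers counting error only and not the spread between replicates. The fitted log2 fold change was -7.01 (SE 0.81, edgeR, adjusted p = 8.1e-05) and -8.48 without OPC4, and at so few OPC reads this size depends on the prior count of the fit. The long feature si:ch211-76m11.11 (69106827 to 69507582, minus strand) spans this position. Its exon blocks overlap 5 features of the table, but not si:dkey-193i10.3, which overlaps no other feature. For si:ch211-76m11.11 the normalized counts were 2.13, 5.13, 7.85, 3.28 and 10.2 in OPC1 to OPC5 and 12.2, 34.2, 42.5, 28.7 and 48.8 in OL1 to OL5. Its groups were separate by a small margin (log2 fold change -2.51, SE 0.59, edgeR, adjusted p = 0.0131). Whether it shares reads with the 5 features it overlaps was not tested.

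The gene ptprb (72814552 to 72914132, minus strand) encodes a receptor-type tyrosine phosphatase that in mammals is known from blood vessel endothelium. It had 0, 3.08, 0, 3.28 and 2.79 normalized counts in OPC1 to OPC5, none resting on more than 3 reads, and 18.7, 26.5, 36.9, 46.5 and 45.1 in OL1 to OL5. Every OL library was well above every OPC library (log2 fold change -4.14, SE 0.78, edgeR, adjusted p = 0.00279). Whether endothelial cells had a part in it was not tested, as no endothelial markers were among the lists.

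Other features higher in OLs carried no functional name. ENSDARG00000099349 (38452837 to 38454885, minus strand) had 4.65 to 10.6 normalized counts in OPCs and 27.7 to 66.7 in OLs (log2 fold change -2.66, SE 0.47, edgeR, adjusted p = 0.00193). For si:dkey-178j11.4 (30846290 to 30851590, plus strand) the ranges were 6.73 to 24.6 and 62.0 to 93.0 (log2 fold change -2.43, SE 0.45, adjusted p = 0.00246). For si:dkey-172k15.3 (75652595 to 75654525, minus strand) they were 12.1 to 42.7 and 80.4 to 149 (log2 fold change -1.86, SE 0.38, adjusted p = 0.00538). In all 3 the lowest OL library exceeded the highest OPC library.

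The last 4 of the 16 fell outside the rule for named features and are named because they complete the count. The finTRIM gene ftr51 (74900736 to 74907791, minus strand), of a fish family of tripartite-motif proteins, had 109, 82.0, 88.6, 55.8 and 63.3 normalized counts in OPC1 to OPC5 and 171, 220, 120, 196 and 166 in OL1 to OL5. It was higher in all OL libraries (log2 fold change -1.13, SE 0.27, edgeR, adjusted p = 0.0139), but with library size alone the call was lost at a log2 fold change of -0.82 (adjusted p = 0.0624, the highest over the alternatives, with 0.000655 the lowest). KIAA0930 (73530758 to 73559964, minus strand), which overlaps NUP50, had 30.9, 53.3, 31.4, 186 and 114 normalized counts in OPCs and 51.7, 476, 454, 340 and 485 in OLs. OL1 lay within the OPC range, so that this was the only 1 of the 16 with overlapping groups (log2 fold change -2.12, SE 0.61, adjusted p = 0.0411, and 0.00243 to 0.0982 over the alternatives). The call held without OL1 (0.00667) or OPC4 and was lost without any 1 of the other libraries. It was also lost with at least 10 counts required in every library. The clone-named zgc:173709 (log2 fold change -1.79, adjusted p = 0.0288) and zgc:173716 (-1.65, adjusted p = 0.049) had 5.32 to 14.6 and 7.45 to 35.9 normalized counts in OPCs, below 21.2 to 38.6 and 41.3 to 59.4 in OLs. Both were near the threshold. The first lost its call without any 1 of OPC1, OPC2, OPC4, OL1, OL2, OL4 or OL5. The second lost it without any library but OPC3. Over the alternatives the adjusted p reached 0.112 for the first and 0.0984 for the second. With library size alone KIAA0930, zgc:173709 and zgc:173716 lost their calls as ftr51 did, which left 12 of the 16.

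**Figure D4:**
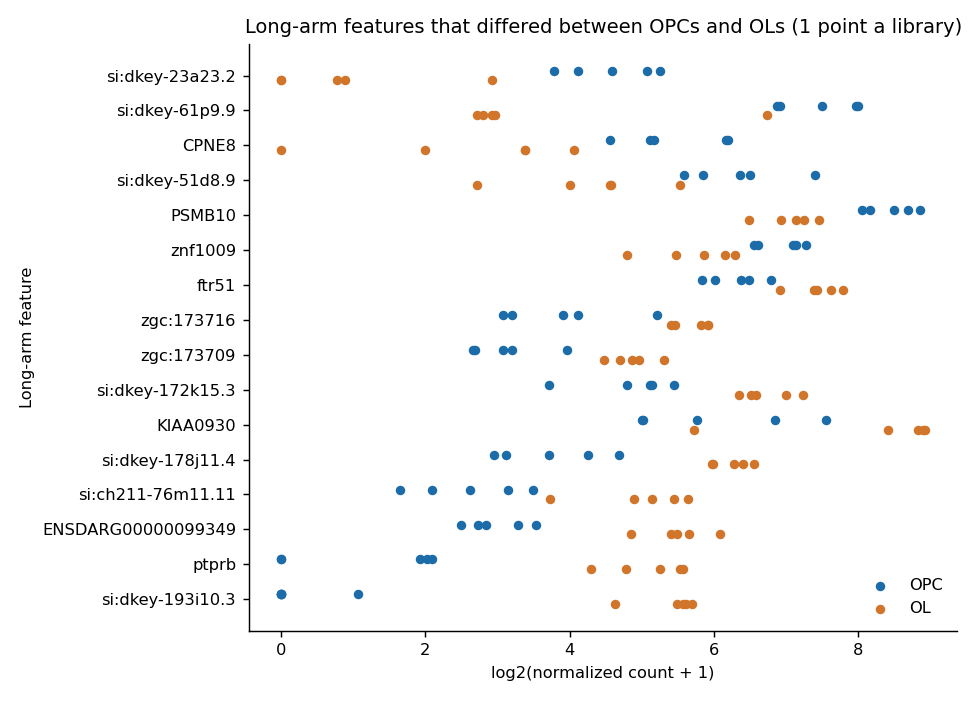
Each point is 1 library, at its log2(normalized count + 1) for the 16 long-arm features that differed between OPCs (blue) and OLs (orange), ordered from higher in OPCs to higher in OLs. The populations did not overlap in 15 of the 16, the exception being KIAA0930, and OL1 lay apart from the other OL libraries in si:dkey-61p9.9.

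Beyond 70 Mb, 8 of the 81 tested features of any kind differed, 4 in each direction, beside 11.9% of all tested features. The following genes there did not pass, and were chosen after their values were seen. RAB21, for a small GTPase of endosome traffic, had 163, 202, 187, 229 and 54.0 normalized counts in OPC1 to OPC5 and 237 to 304 in OL libraries. The populations did not overlap, with OPC5 far below the others (log2 fold change -0.66, SE 0.31, edgeR, adjusted p = 0.223). The telomere-binding factor gene terfa had 105 ± 34.5 normalized counts (SD, n = 5) among OPC libraries and 82.5 ± 15.6 among OL libraries (edgeR, adjusted p = 0.543). The membrane-shaping protein gene PACSIN2 had 132 ± 30.2 and 141 ± 23.8 (adjusted p = 0.878). The tubulin-modifying enzyme gene TTLL1 had 151 ± 76.0 and 112 ± 16.7 (adjusted p = 0.572), and the transcriptional cofactor gene trim24 had 121 ± 47.2 and 160 ± 48.7 (adjusted p = 0.51).

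The library OPC5 stood apart more often than any other library, on the long arm and elsewhere, a pattern that was looked for after seeing the data. A library was counted as standing apart in a feature when the log2 values of its population spanned at least 2 and its gap to the nearest library took over 0.71 of that span. OPC5 did so in 21 of the 269 tested long-arm features (7.81%), and was the lowest OPC library in 21 of 21. On the rest of chromosome 4 it did so in 8 of 331 (2.42%) and on the other nuclear chromosomes in 280 of 11673 (2.40%), where single chromosomes ranged from 0.885% to 3.74%. OPC5 was the lowest OPC library in 6 of those 8 and in 230 of those 280. Any other library stood apart in no more than 4 of the 269, 4 of the 331 and 104 of the 11673. Long-arm features are low, and at a mean log2 level under 6 the shares were closer, at 7.92% of 240 features on the long arm, 5.0% of 100 on the rest and 4.81% of 3909 elsewhere.

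In 10 of the 21 features OPC5 had 0 counts, and in 17 it had at most 3. All libraries were made from low-input RNA of sorted cells with amplified cDNA, and the part of this in the 0 counts was not tested. The feature si:dkeyp-4f2.3 had 201, 77.9, 200 and 162 normalized counts in OPC1 to OPC4 but 4.65 in OPC5, with 53.7 to 141 in OLs. For si:cabz01054396.2 OPC5 had 0 where the other OPC libraries had 56.4 to 91.9, and for the zinc finger gene znf1069 it had 0 where they had 25.8 to 53.6. RAB21, at 54.0 normalized counts in OPC5, was another of the 21. Without OPC5, 13 long-arm features differed between the populations, 11 of them among the 16.

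**Figure D5:**
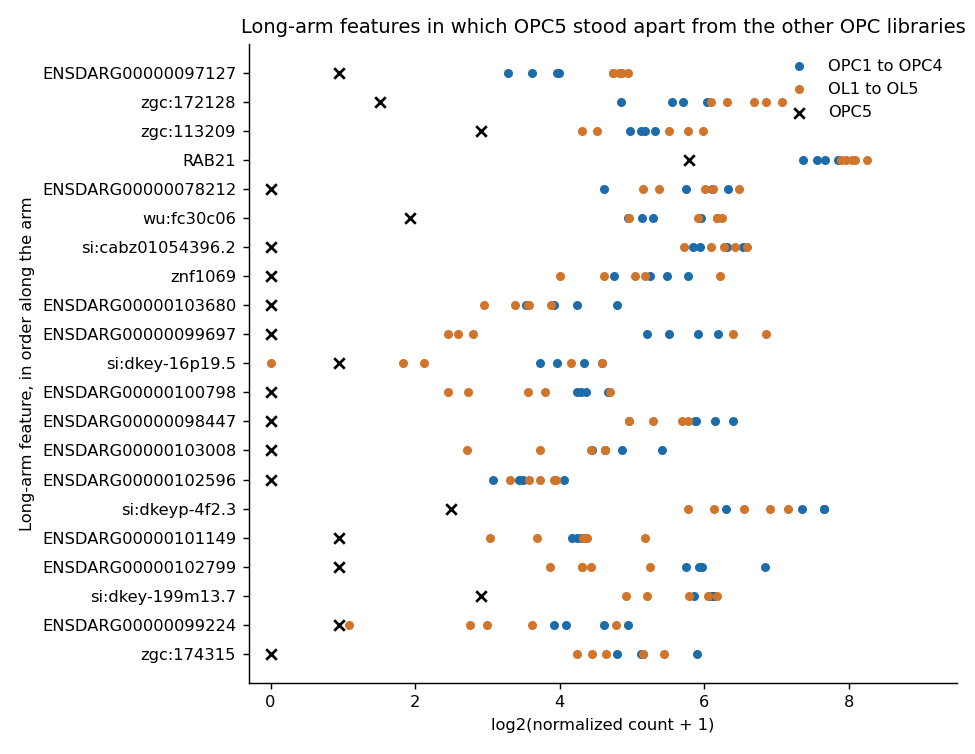
Each row is 1 of the 21 long-arm features in which OPC5 (black crosses) stood apart, with OPC1 to OPC4 in blue and the OL libraries in orange at their log2(normalized count + 1). OPC5 was the lowest OPC library in each and lay at 0 in 10 of them.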

How the data were processed

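The authors deposited raw counts per Ensembl feature for 10 libraries, 5 of each population, with the exon blocks and length of each feature. They had demultiplexed reads with bcl2fastq 2.17.1.14, mapped them to GRCz10 with GSNAP and counted them with featureCounts 1.5.2, and no normalization is part of the deposited counts. Gene symbols matched 25925 of 31388 identifiers. From the counts, features passing edgeR's filterByExpr were scaled by DESeq2 size factors (0.892 to 1.39), called normalized counts, and compared with edgeR (quasi-likelihood F test, p-values adjusted by Benjamini-Hochberg over all tested features). Library-level measures used exact permutation tests, adjusted over 8 measures. Tools were R 4.3.3 with limma 3.58.1, DESeq2 1.42.0 and edgeR 4.0.16, and Python 3.11.15 with scipy 1.17.1. The edgeR, DESeq2 and limma voom tests were tried on simulated data, and the exact tests on fixed numbers with a known answer. The pseudocount was 1.

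The member rule uses position only, but the region and the lists were chosen with earlier results of these data known. Named features were the 6 with the largest change in each direction among non-overlapping calls, the 6 highest per kb, those next to the boundary and the 2 most abundant tested zinc finger genes, other named genes and features with clone-based names. The NLR and small RNA groups had no tested member. Replicate libraries differed by more than sampling noise (chi-square per degree of freedom 28.6 to 109), so none was merged. The labels call the replicates biological. Alternatives covered normalization, filters, tests, thresholds, boundaries, a replicate block and leaving out each library. Leaving out the distal end was added after seeing the data. No sequences were analysed here.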

Additional observations from a re-analysis of the deposited data

Results flagged for a closer look

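The library-level measures and the named features gave 66 groups of 5 libraries to examine. Of these, 5 had a highest or lowest library set apart from the others by Dixon's criterion, where chance gives about 3.3. All 5 were groups of named features. For si:dkey-23a23.2, a feature of unknown name that was higher in OPCs, OL5 had 6.57 normalized counts and the other OL libraries 0 to 0.855. For si:dkey-61p9.9 OL1 had 105 normalized counts against 5.59 to 6.84 in the other OL libraries. For si:dkey-193i10.3, higher in OLs, OPC4 had 1.09 normalized counts, from a single read, against 0 in the other OPC libraries, and OL1 had 23.7 against 43.6 to 50.7 in the other OL libraries. For GRAMD4, next to the boundary, OPC1 had 86.2 normalized counts against 0.931 to 22.4 in the other OPC libraries. OL1 is the deepest library, and its part in these values was not tested.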

How the results depend on the processing

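The 16 differing long-arm features were 15 with TMM normalization, 21 with DESeq2's Wald test and 16 with limma voom, of which 15, 16 and 14 were among the 16. Library size alone gave 10 higher in OPCs and 6 higher in OLs, with 12 shared, and a median log2 fold change of 0.30. Requiring at least 10 counts in every library left 3 (1 higher in OPCs, 2 in OLs), an adjusted p under 0.01 left 6 (1 and 5), and leaving out the distal end, chosen after seeing the data, left 8 (2 and 6), each by construction from fewer features or a stricter threshold. Leaving out 1 library gave 9 to 14 (2 to 5 higher in OPCs, 7 to 11 in OLs), with 10, 10 and 9 without OL2, OL4 and OL5. Same-numbered libraries of the 2 populations correlated at 0.068 on average (0.024 to 0.105), and differently numbered ones at -0.017 (-0.102 to 0.073). Whether the numbers pair the libraries was not tested. A replicate block gave 13 calls, 12 of them among the 16. Under the block the detection ratio (-0.067), summed level (198 CPM), log2 ratio of levels (0.30) and level relative to the rest (-0.28) had the smallest p possible, 0.0625.

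The share detected differed by 1.31 percentage points when 10 counts were needed (adjusted p = 0.0317) and by -2.94 without depth correction (adjusted p = 0.0272). It was 0.042 without OPC5, 0.22 without OL2 and -0.87 to 0.22 over all such omissions. The detection ratio differed by -0.0059 at 10 counts (adjusted p = 0.563). With features of at least 500 bp the arms differed in detection by -2.46 on average over all 10 libraries. Without the most abundant features the log2 ratio differed by 0.11. The level per length differed by 0.065, and relative to the rest by 0.20, as a median over detected features, and by 0.025 with CPM (adjusted p = 0.0181). The summed level differed by -390 with size factors. The cause of these moves was not tested. The small log2 differences of si:cabz01066312.1 and RAB3IP changed sign with library size (0.24 and 0.22), without OPC3 (0.023 and 0.020), without OPC4 for the former (0.064) and without OPC1 for the latter (0.054), with ranges of -0.25 to 0.064 and -0.22 to 0.054 over all omitted libraries. Of 380 alternatives for named features, 305 kept direction and side of the threshold, 68 lost the call, 1 gained it and 6 reversed. No feature under 200 bp passed the filter on low counts, and the part of depth in this was not tested.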
